A study of Mus musculus with 12 samples.

Results

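The 10 genes treated here set the pace of the G1 phase and were followed over all 12 arrays of the series: 5 cyclins (Ccnd1, Ccnd2, Ccnd3, Ccne1 and Ccne2) and 5 inhibitors of cyclin-dependent kinases (Cdkn1a, Cdkn1b, Cdkn2a, Cdkn2b and Cdkn2c). They were chosen by name, through the gene name or accession that the array files give for a probe. All 10 had at least 1 probe, 17 probes on 53 spots in all, and they are 10 of the 21021 genes tested. The cells were neural progenitors of 129/Ola mice, and their RNA was hybridised to one-colour Agilent whole mouse genome arrays. Each of 10 cultures carried a retroviral pMXs-IRESNeo vector with the open reading frame of 1 transcription factor (Crebzf, Esx1, Etv6, Gatad2b, Hmga2, Nfxl1, Pax6, Pdx1, Sox11 or Zfp451), and another carried EGFP, a fluorescent protein, as a control. Virus was used at a titre that gave about 95% of cells expressing the insert, G418 was added at 24 h to kill cells without the resistance gene, and cells were taken at 72 h. The last culture was labelled mock, and the labels do not say whether it met an empty virus or G418. Every group held 1 array, so no value below has a replicate, and no p-value was computed.

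Cells commit to a new round of division late in G1. D-type cyclins, made in response to growth signals, bind CDK4 and CDK6 and begin to phosphorylate the retinoblastoma protein, which frees E2F transcription factors, and E-type cyclins then drive CDK2 and the start of DNA replication. Inhibitors of the Ink4 family (p16, p15 and p18) act on CDK4 and CDK6, and those of the Cip/Kip family (p21 and p27) on the CDK2 complexes. In neural progenitors a longer G1 is known to accompany differentiation, and the Cdkn2a locus is known for silencing by Polycomb proteins such as Bmi1, which keeps neural stem cells dividing.

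A level here is the log2 of the background-subtracted intensity minus that of the array's 75th percentile, so 0 is that percentile, and levels of different probes are not set against each other. A call on an array of a factor needed a level that differed from EGFP and from mock by 2-fold or more in the same direction. The same 2 controls serve all 10 factors, so an error in a control enters every comparison. The 75th percentile of signal ran from 823.5 to 1026 units, the share of probes well above background from 62.6% to 69.1%, and no spot was saturated. All 17 probes of the 10 genes were well above background on all 12 arrays. The arrays stood on 3 slides of 4. Slide 1 held Pax6, Hmga2, EGFP and mock, slide 2 held Gatad2b, Etv6, Esx1 and Nfxl1, and slide 3 held Crebzf, Pdx1, Sox11 and Zfp451, so slide 3 has no array of a control. Of 26 probes for the overexpressed genes, 2 (both for Pax6) stood at least 2-fold above both controls on their own factor's array, and none stood 2-fold above all other arrays. Which of these probes lie inside the inserted reading frame was not established, so the values check the labels in neither direction. Of the 21021 genes, 16099 passed the background flag on every array, and their median difference from the controls was -0.06 on Pax6, -0.13 to -0.12 on Esx1 and the slide 3 arrays, and -0.03 to 0.03 on the rest. Sizes are given without a correction for this shift.

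The labelled cell type was checked by its markers. The neural progenitor markers Sox2, Nes and Vim were well above background on all 12 arrays, while Fabp7 was not above background on either control. Among 7 microglial and macrophage markers, Itgam and Tyrobp were well above background on no array, Cd68 on all 12 and Csf1r on 10. Among 5 endothelial markers, Pecam1 and Cdh5 were well above background on no array and Tek on all 12. Some markers of other cell types moved with the results given below. Of 12 fibroblast and matrix genes, 5 to 8 were called higher on 6 arrays, Esx1, Pax6 and the 4 of slide 3, where the summed linear level of the list lay between 252.7 and 271.8 times the 75th percentile. On the controls and the other 4 factor arrays that sum lay between 106.9 and 119.7. Beside these and the next counts, 9.58% to 10.7% of all genes were called higher and 6.27% to 7.4% lower on the 6 arrays. Of 8 astrocyte genes, 2 to 6 were called higher on those 6 arrays (sums of 33.2 to 37.2, against 10.9 to 13.7 on the other 6 arrays). Others of this list were mostly dark: Gfap was well above background on EGFP only, Slc1a2 on Pax6 only, and Aqp4 on Pax6, Hmga2 and EGFP. Of 8 neuron genes 2 or 3 were called higher on those 6 arrays, among them Snap25 and Stmn2 on all 6. The neuron sums were 1.65 to 1.85 there, against 0.94 to 1.06. The neuron list was mixed: Tubb3 (-0.63 to -0.11) and Syp (-0.82 to -0.32) lay below the control mean on all 6, uncalled. Dcx and Elavl3 were well above background on EGFP only. The median of the neuron list was -0.24 to 0.12 on the 6 arrays, beside -0.21 to -0.08 for all genes. Of the muscle list of 6, Des was called higher and Tnnt2 lower on all 6 arrays, and Acta1 and Tagln higher on Esx1 and slide 3. The oligodendrocyte list was mixed. Pdgfra was called higher on those 6 arrays and on Etv6, and Cspg4 on Esx1 and slide 3. Mag was called lower on Esx1, Crebzf and Sox11 (-1.46 to -1.10), and Sox10 lower on Crebzf (-1.22) and Zfp451 (-1.12). The microglial gene Aif1 was called higher on those 6 arrays, and Cx3cr1 on Pdx1 and Nfxl1. The 11 neural progenitor markers were mixed: Nes was called lower on 5 of the 6 arrays, Sox1 lower on Crebzf, Msi1 lower on Zfp451, and Fabp7 and Olig2 higher on Crebzf. Sox2 and Notch1 were called nowhere and stood at 0.72 and 0.71 on Pax6. The list's median was -0.37 to -0.08 on the 6 arrays and -0.25 to -0.07 on the other 4 factor arrays. Its summed level was 81.5 to 96.8 on the 6 arrays and 97.8 to 125.1 on the other 6 arrays. On Etv6, 3 of 5 epithelial genes (Krt8, Krt18 and Cldn6) were called higher, with a sum of 16.0 against 5.19 to 9.75 on the other 11 arrays. Cdh1 of the same list was called higher on Esx1, Pax6 and the slide 3 arrays (1.39 to 2.54 in log2), and Cldn6 also on Crebzf. The part of these markers in the results was not tested. In RNA from whole cultures, fewer cells of a type and less RNA per cell cannot be told apart.

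RefSeq windows of 300 bases around the transcription start, 250 before and 50 from the start on, were found for 7 of the 10 genes, 11 windows in all. The stretches before the start are shown for the most widely called cyclin, Ccne1, and for both starts of Cdkn2a, since a single probe reads the transcripts of both. All 3 are on the minus strand of GRCm38.p6, written 5′ to 3′. The Ccne1 stretch is chr7:38107491-38107740. The Cdkn2a stretches are chr4:89294620-89294869, before the start of the p19Arf transcript, and chr4:89282193-89282442, before the start of the p16 transcript. Capitals mark GC boxes (GGGCGG on either strand) and E2F motifs (TTTCCCGC, TTTGGCGC, TTTCGCGC or TTTGCCGC on either strand).
Ccne1: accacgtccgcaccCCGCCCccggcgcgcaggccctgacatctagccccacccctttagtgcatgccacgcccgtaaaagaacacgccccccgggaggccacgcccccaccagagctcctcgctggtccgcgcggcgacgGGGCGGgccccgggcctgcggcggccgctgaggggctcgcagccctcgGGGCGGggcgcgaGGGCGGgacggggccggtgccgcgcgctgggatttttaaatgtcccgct
Cdkn2a, p19Arf start: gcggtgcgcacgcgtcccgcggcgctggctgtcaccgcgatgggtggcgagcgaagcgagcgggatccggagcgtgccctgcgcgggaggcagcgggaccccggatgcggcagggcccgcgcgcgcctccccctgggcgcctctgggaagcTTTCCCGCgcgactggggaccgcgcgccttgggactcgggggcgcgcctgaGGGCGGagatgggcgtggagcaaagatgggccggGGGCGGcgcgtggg
Cdkn2a, p16 start: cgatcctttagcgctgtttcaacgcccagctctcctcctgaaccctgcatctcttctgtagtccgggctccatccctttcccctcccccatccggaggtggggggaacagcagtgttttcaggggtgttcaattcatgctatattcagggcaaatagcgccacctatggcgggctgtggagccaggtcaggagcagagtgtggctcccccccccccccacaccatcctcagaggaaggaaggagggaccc
Of the 11 windows, 1 held an E2F motif, TTTCCCGC with its first base at position -99 of the p19Arf start, where -1 is the base before the start. Among all 32851 RefSeq promoter windows of the same length, 2.26% held an E2F motif of these letters. The p16 window held its single GC box after the start, at 24. The Ccne1 window held 4 GC boxes, at -236, -110, -62 and -49, and GC boxes stood in 9 of the 11 windows and in 35.7% of all windows. The matches overlap nowhere in the stretches shown. A match is a run of letters and not a shown binding site, and other spellings of either motif were not searched.

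Of 100 pairs of a gene and a factor array, 11 were called lower and 4 higher, where 4.34% of all gene and array pairs were called lower and 6.28% higher. The lower calls belonged to Ccne1 (6 arrays), Ccne2 (4 arrays) and Cdkn1a (1 array), and the higher calls to Cdkn2a (4 arrays). The other 6 genes were called on no array. The Pax6 array had 3 members lower and 1 higher, beside 6.38% and 10.7% of all genes. Crebzf had 2 lower and 1 higher, beside 6.27% and 9.89%, and Sox11 had 2 lower and 1 higher, beside 6.92% and 9.79%. Esx1 had 1 lower and 1 higher, beside 7.4% and 10.4%. On Pdx1 2 were lower and none higher, beside 6.61% and 9.87%, and on Zfp451 1 was lower and none higher, beside 6.28% and 9.58%. With 10 members, 1 higher gene on an array is near the share of all genes called there. No member was called on Hmga2 (0.461% of all genes higher and 0.557% lower), Gatad2b (0.69% and 0.999%), Etv6 (1.09% and 0.833%) or Nfxl1 (0.376% and 1.17%). The range over the 12 arrays was at least 1 log2 for 6 of the 10 genes and for 44.5% of those 16099 genes. No member stood 2-fold from each of the other 11 arrays on any array. The share of all genes that did so was 0.495% on Pax6, 0.219% on Hmga2, 0.566% on Gatad2b, 0.523% on Etv6, 0.457% on Esx1, 0.252% on Nfxl1, 0.362% on Crebzf, 0.271% on Pdx1, 0.233% on Sox11, 0.167% on Zfp451, 0.304% on EGFP and 0.428% on mock.

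**Figure D1:**
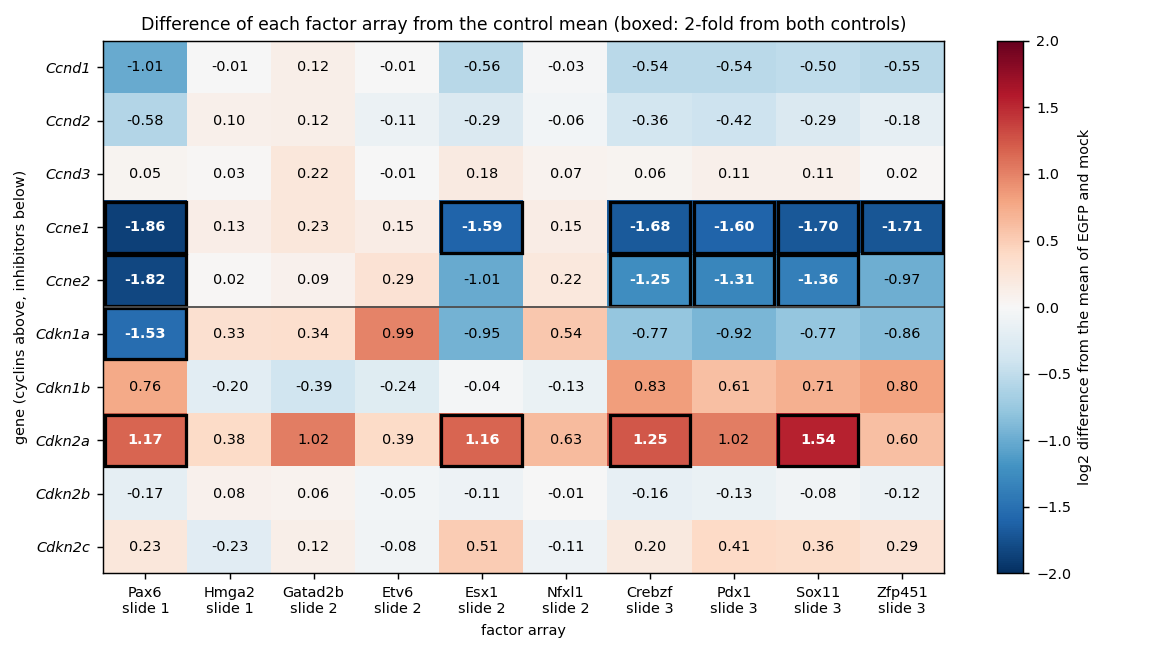
Log2 difference of each gene (rows) on each factor array (columns, with the slide) from the mean of the EGFP and mock arrays, coloured from -2 to 2, with a box around each of the 15 differences that were at least 2-fold from both controls. The boxes lie in the rows of Ccne1, Ccne2, Cdkn1a and Cdkn2a and in 6 columns, those of Esx1, Pax6 and the slide 3 arrays.

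The D-type cyclins were called on no array. Ccnd1, cyclin D1, stood at a level of 3.74 on EGFP, 3.72 on mock, 2.72 on Pax6, 3.72 on Hmga2, 3.85 on Gatad2b, 3.72 on Etv6, 3.17 on Esx1, 3.70 on Nfxl1, 3.19 on Crebzf, 3.19 on Pdx1, 3.22 on Sox11 and 3.17 on Zfp451. The order had 3 steps: both controls, Hmga2, Gatad2b, Etv6 and Nfxl1 at the top, Esx1, Crebzf, Pdx1, Sox11 and Zfp451 between, and Pax6 alone at the bottom. A yardstick for these gaps is the 95th percentile of the difference between EGFP and mock over the 500 genes nearest in level, 0.14 for Ccnd1. It comes from 1 slide and holds no spread between slides or cultures. The gaps between neighbours within a step were below it and those between the steps, 0.48 and 0.45, above it. The Ccnd1 level on Pax6 was -1.02 from EGFP in log2 and -0.999 from mock, just short of 2-fold, so it was not called. On the 5 arrays of the middle step the difference from the control mean was -0.56 to -0.50. Its probe, on 10 spots of each array, had a spot SD of 0.037 to 0.057, which is technical error within an array.

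Ccnd2, cyclin D2, was read by 3 probes. The probe with the highest mean level gave 5.35 on EGFP, 5.29 on mock, 4.74 on Pax6, 5.42 on Hmga2, 5.44 on Gatad2b, 5.20 on Etv6, 5.03 on Esx1, 5.26 on Nfxl1, 4.96 on Crebzf, 4.90 on Pdx1, 5.03 on Sox11 and 5.14 on Zfp451. Pax6 was again the lowest, at -0.58 from the control mean, and its gap to the next array, Pdx1, was 0.16 against a yardstick of 0.15. The next gaps up the order were all smaller than the yardstick, so the other arrays form a graded series without a step. On Pax6 the other probes gave -0.67 and -0.51, and on Esx1 the 3 probes gave -0.29, -0.34 and -0.57. On Zfp451 the difference of the brightest probe was -0.18, and quantile normalization turned it to 0.08.

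Ccnd3, cyclin D3, the third D-type cyclin, stayed between 3.24 on EGFP and 3.49 on Gatad2b, a range of 0.25 log2 in which no gap between neighbours passed the yardstick of 0.15. The median range of the 16099 genes was 0.92. On Gatad2b and Esx1 Ccnd3 was 0.22 and 0.18 above the control mean, and on the other 8 factor arrays it lay within 0.11 of it.

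**Figure D2:**
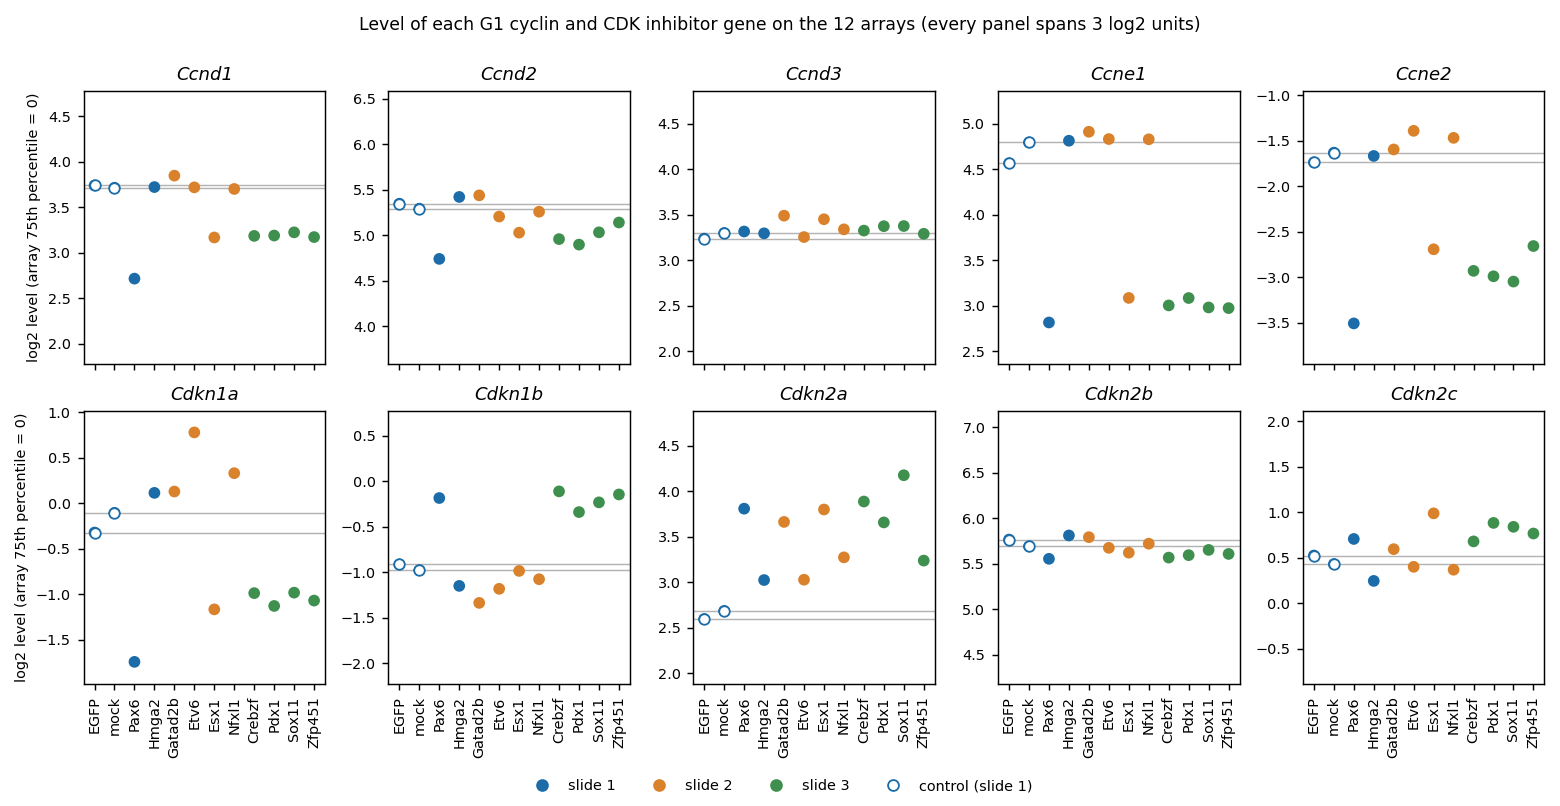
Level of each gene (log2, array 75th percentile at 0) on each of the 12 arrays, 1 point per array coloured by slide, with the EGFP and mock levels as open points and grey lines; every panel spans 3 log2 units. Ccne1 stands between 2.82 and 3.09 on Pax6, Esx1, Crebzf, Pdx1, Sox11 and Zfp451 and between 4.57 and 4.91 on the other 6 arrays, whereas Ccnd3 and Cdkn2b stay within 0.26.

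The E-type cyclins gave 10 of the 15 calls. Ccne1, cyclin E1, which activates CDK2 at the entry into S phase, was at 4.57 on EGFP, 4.80 on mock, 2.82 on Pax6, 4.82 on Hmga2, 4.91 on Gatad2b, 4.83 on Etv6, 3.09 on Esx1, 4.83 on Nfxl1, 3.01 on Crebzf, 3.09 on Pdx1, 2.98 on Sox11 and 2.98 on Zfp451. The 6 low arrays (Pax6, Esx1, Crebzf, Pdx1, Sox11 and Zfp451) lay below the 6 high ones. On those low arrays 6.27% to 7.4% of all genes were called lower. How many other genes split the arrays this way was not counted. Among the low arrays no neighbours in the order differed by more than the yardstick of 0.16. Relative to the control mean Ccne1 was 3.64-fold lower on Pax6, the largest difference, and 3.02-fold lower on Esx1, the smallest. The second Ccne1 probe, which the files place at the same position (mm7 chr7:34990690-34990713), gave -1.91 on Pax6 and -1.73 to -1.54 on the other low arrays, where the brighter probe gave -1.86 and -1.71 to -1.59. EGFP was 0.23 below mock for this gene, more than the yardstick, so the differences from EGFP alone are the smaller ones, -1.48 on Esx1 and -1.75 on Pax6.

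Ccne2, cyclin E2, a second activator of CDK2, stood at -1.74 on EGFP, -1.63 on mock, -3.51 on Pax6, -1.67 on Hmga2, -1.60 on Gatad2b, -1.39 on Etv6, -2.69 on Esx1, -1.47 on Nfxl1, -2.93 on Crebzf, -2.99 on Pdx1, -3.05 on Sox11 and -2.66 on Zfp451. The same 6 arrays were low. Here Pax6 stood apart from the rest of the low arrays by 0.46, above the yardstick of 0.26. Ccne2 was 3.54-fold lower on Pax6 than the control mean, 2.57-fold on Sox11, 2.47-fold on Pdx1 and 2.37-fold on Crebzf. On Esx1 and Zfp451 the differences were -1.01 and -0.97, with less than 2-fold against EGFP, and were not called. The second Ccne2 probe gave -1.27 on Esx1 and -1.16 on Zfp451 and was called on all 6 arrays. Its position is mm7 chr4:11130287-11130346, and that of the brighter probe mm7 chr4:11130171-11130230. With a normexp background correction the calls on Crebzf, Pdx1 and Sox11 were lost (-0.98 to -0.92), while the call on Pax6 held (-1.23).

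Among the Cip/Kip inhibitors, Cdkn1a had the widest range of all 10 genes, 2.52 log2. Cdkn1a encodes p21, an inhibitor of CDK2 that p53 induces. It stood at -0.32 on EGFP, -0.11 on mock, -1.74 on Pax6, 0.11 on Hmga2, 0.13 on Gatad2b, 0.78 on Etv6, -1.17 on Esx1, 0.33 on Nfxl1, -0.99 on Crebzf, -1.13 on Pdx1, -0.98 on Sox11 and -1.07 on Zfp451. The factor arrays lay on both sides of the controls: Etv6 was highest, followed by Nfxl1, Gatad2b and Hmga2, and the other 6 lay below both. On Pax6 Cdkn1a was 2.89-fold lower than the control mean and called. On Zfp451, Sox11, Pdx1, Crebzf and Esx1 it differed by -0.95 to -0.77 in log2 and was not called. On Etv6 it was 0.99 above the control mean, 1.10 above EGFP and 0.88 above mock, and so was not called either. The gaps from Etv6 to Nfxl1 (0.45) and from Esx1 to Pax6 (0.58) exceeded the yardstick of 0.20, while those among Esx1, Pdx1, Zfp451, Crebzf and Sox11 did not. The difference of EGFP from mock for Cdkn1a, -0.22, was also beyond the yardstick. The probe (mm7 chr17:27293819-27293878) had 10 spots per array with a spot SD of 0.021 to 0.053.

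Cdkn1b encodes p27, which inhibits CDK2 complexes and is destroyed as cells enter S phase. Its 3 probes did not give the same picture. The brightest probe, designed on a cDNA clone and named by its symbol in the files, gave -0.91 on EGFP, -0.98 on mock, -0.19 on Pax6, -1.15 on Hmga2, -1.34 on Gatad2b, -1.18 on Etv6, -0.99 on Esx1, -1.08 on Nfxl1, -0.11 on Crebzf, -0.34 on Pdx1, -0.23 on Sox11 and -0.15 on Zfp451. On this probe Pax6 and the 4 arrays of slide 3 were 0.61 to 0.83 above the control mean, and Esx1 was level with the controls at -0.04. The second probe, designed on the RefSeq transcript and spotted 10 times, gave -3.03 on EGFP, -3.34 on mock, -2.33 on Pax6, -3.00 on Hmga2, -2.81 on Gatad2b, -3.35 on Etv6, -1.99 on Esx1, -3.52 on Nfxl1, -2.56 on Crebzf, -2.83 on Pdx1, -2.50 on Sox11 and -2.41 on Zfp451. Here Esx1 was the highest array, 1.20 above the control mean and 2-fold above both controls. The third probe, on the RefSeq transcript as well, placed Esx1 at 1.24, also 2-fold above both controls, Pax6 at 1.08, and Zfp451 at 0.995. This probe was dim: it read -6.15 on EGFP and -5.96 on mock, where the floors were -6.78 and -6.56. All 3 probes put Pax6, Crebzf, Pdx1, Sox11 and Zfp451 above both controls. In mm7 they lie on chromosome 6 from 134939519 to 134939578, from 134935407 to 134935465 and from 134937910 to 134937969, so the brightest lies farthest along the plus strand. Which transcript each one reads was not tested.

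**Figure D3:**
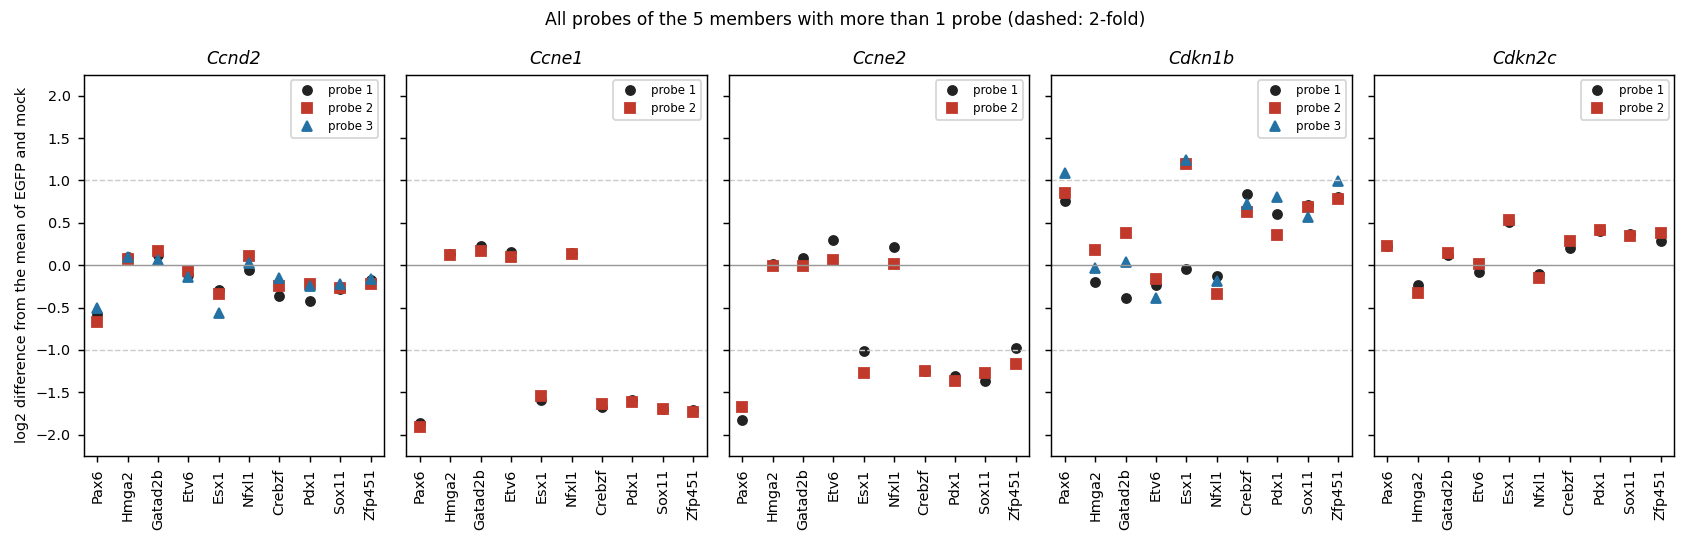
Log2 difference from the control mean on the 10 factor arrays for every probe of the 5 genes with more than 1 probe, numbered from the brightest, with dashed lines at 2-fold. The probes of Ccnd2, Ccne1, Ccne2 and Cdkn2c lie close together, while on Esx1 the brightest Cdkn1b probe is at -0.04 and the others are at 1.20 and 1.24.

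Of the Ink4 genes, Cdkn2a was the one that was called. The locus makes p16, which inhibits CDK4 and CDK6, and p19Arf, which stabilises p53, from 2 starts. The single probe (mm7 chr4:88678367-88678426) is assigned in the files to both transcripts, so the array does not tell them apart. Cdkn2a stood at 2.59 on EGFP, 2.68 on mock, 3.81 on Pax6, 3.02 on Hmga2, 3.66 on Gatad2b, 3.03 on Etv6, 3.80 on Esx1, 3.27 on Nfxl1, 3.89 on Crebzf, 3.66 on Pdx1, 4.17 on Sox11 and 3.24 on Zfp451. All 10 factor arrays lay above both controls, which held for 1.96% of all genes, and below both for 5.74%. It was 2.90-fold higher than the control mean on Sox11, 2.37-fold on Crebzf, 2.25-fold on Pax6 and 2.23-fold on Esx1. On Gatad2b and Pdx1 it was 1.02 higher in log2 but less than 2-fold above mock, and was not called. The smallest differences were 0.38 on Hmga2 and 0.39 on Etv6, both larger than the yardstick of 0.16. The order differed from that of the E-type cyclins: Gatad2b lay level with Pdx1, Esx1, Pax6 and Crebzf within the yardstick between neighbours, Zfp451 lay with Nfxl1, and Sox11 stood 0.29 above all others. Among its repeated spots the SD was 0.020 to 0.048 on 11 arrays and 0.17 on Pdx1, where the lowest spot read 3.19 and the highest 3.76.

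Cdkn2b, which encodes p15 and lies beside Cdkn2a on chromosome 4, did not move with it. Cdkn2b ranged from 5.56 on Pax6 to 5.81 on Hmga2, 0.26 log2 in all, with no gap between neighbours above the yardstick of 0.15. On the 6 arrays with low Ccne1 it differed from the control mean by -0.17 to -0.08, and quantile normalization turned this to 0.05 on Crebzf, 0.11 on Pax6 and 0.10 on Pdx1. Relative to the shift of all genes the values were -0.11 to 0.05.

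Cdkn2c encodes p18, a further inhibitor of CDK4 and CDK6. It stood at 0.52 on EGFP, 0.43 on mock, 0.71 on Pax6, 0.24 on Hmga2, 0.59 on Gatad2b, 0.40 on Etv6, 0.99 on Esx1, 0.37 on Nfxl1, 0.68 on Crebzf, 0.88 on Pdx1, 0.84 on Sox11 and 0.77 on Zfp451. Esx1 was highest, 0.51 above the control mean, and Pax6 and the slide 3 arrays were 0.20 to 0.41 above it. No gap between neighbours passed the yardstick of 0.18. The second probe gave 0.53 on Esx1 and 0.22 to 0.42 on those 5 arrays.

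**Figure D4:**
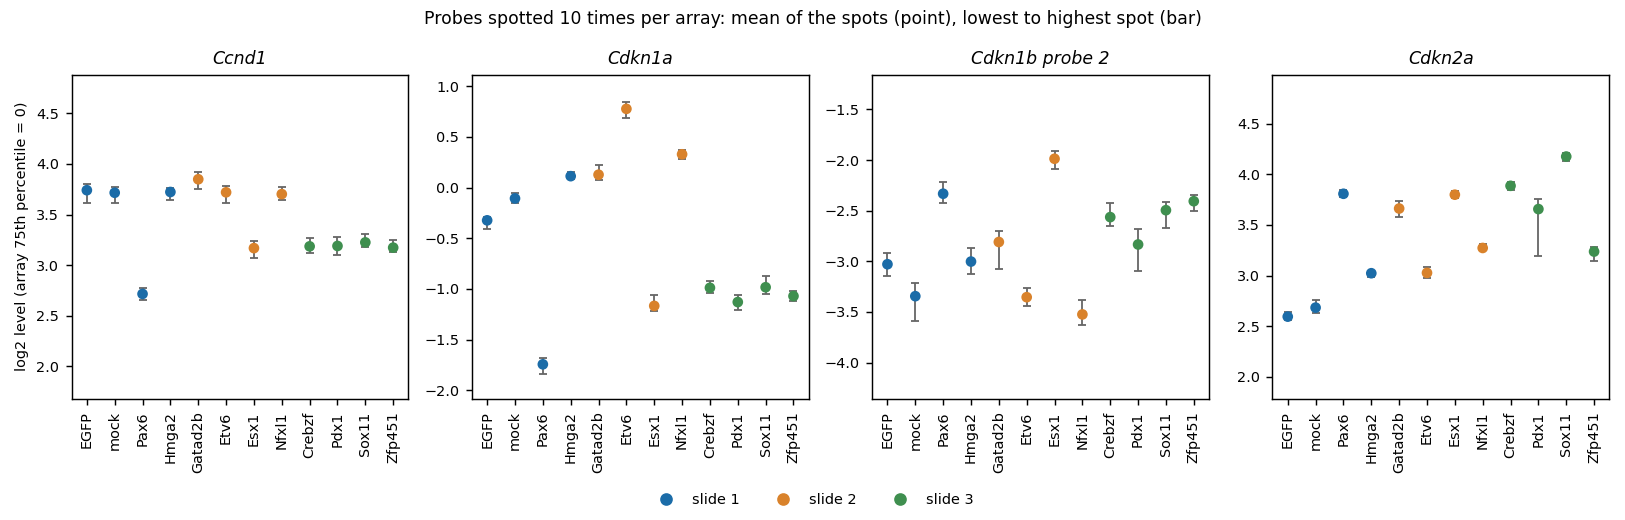
Level (log2, array 75th percentile at 0) of the 4 probes spotted 10 times on each array, with the mean over the spots left after outlier flags as a point coloured by slide and a bar from the lowest to the highest spot. Most bars are short beside the range of a probe over the arrays. Longer bars include Cdkn2a on Pdx1, where the lowest spot is at 3.19. For Cdkn1b probe 2 they include Pdx1 (-3.09 to -2.69), Gatad2b (-3.07 to -2.70) and mock (-3.59 to -3.22).

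Values within a slide hold no difference between slides. On slide 1 Pax6 differed from EGFP by -1.75 for Ccne1, -1.77 for Ccne2, -1.42 for Cdkn1a and 1.21 for Cdkn2a. Hmga2, on the same slide, differed from EGFP by 0.25, 0.07, 0.44 and 0.43 for those genes. From mock, on that slide too, Pax6 differed by -1.98, -1.88, -1.64 and 1.12, and Hmga2 by 0.02, -0.04, 0.22 and 0.34. On slide 2, Esx1 differed from Gatad2b, Etv6 and Nfxl1 by -1.83, -1.75 and -1.74 for Ccne1 and by -1.10, -1.30 and -1.22 for Ccne2. For Cdkn1a the differences were -1.30, -1.95 and -1.50. For these 3 genes the differences within the slide were larger than those of Esx1 from the control mean, -1.59, -1.01 and -0.95. For Cdkn2a, Esx1 was 0.14 above Gatad2b, 0.77 above Etv6 and 0.53 above Nfxl1, less than its 1.16 above the control mean. The 4 arrays of slide 3 have no counterpart on their slide, so the slide and the factors cannot be told apart there. Among themselves they spanned 0.94 for Cdkn2a, from 3.24 on Zfp451 to 4.17 on Sox11, and at most 0.39 for every other member.

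Other genes of the G1 network were taken from lists that hold no member. The counts of this and the following lists stand beside the shares of all genes. On Esx1, Pax6 and the slide 3 arrays 9.58% to 10.7% of all genes were called higher and 6.27% to 7.4% lower. On the other 4 factor arrays 0.376% to 1.09% were called higher and 0.557% to 1.17% lower. Of 11 G1 kinases and activators, 1 was called higher, on Esx1, Pax6 and the slide 3 arrays, near the share of all genes there. This was Ccna1, a cyclin best known from the germ line, at least 4.22-fold above the control mean on Pax6 and at least 6.38-fold to 7.52-fold above it on the others, a lower bound because mock was at the floor. Cdk6, a partner of the D-type cyclins, was called lower on Pax6 (-1.10) and stood at -0.95 to -0.83 on the other 5, uncalled. Cdk4 and Cdk2 were called nowhere and lay between -0.37 and 0.16 and between -0.62 and 0.08. The median of this list was -0.50 on Pax6 and -0.39 to -0.29 on the other 5, beside medians of all genes of -0.08 on Pax6 and -0.21 to -0.08 on those. Of 3 other CDK inhibitors, Cdkn1c, which encodes p57, was not well above background on either control and was at least 7.84-fold higher on Pdx1 and at least 15.6-fold higher on Esx1, with Crebzf, Sox11 and Zfp451 between. On Pax6 Cdkn1c was not well above background either. Cdkn2d, which encodes p19Ink4d, and Cdkn3, a phosphatase of CDKs, were called nowhere.

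The RB and E2F list of 13 genes had 5 members lower on Pax6, 4 on Crebzf, Sox11 and Zfp451, 3 on Esx1 and Pdx1, 1 on Gatad2b and Etv6, and none on Hmga2 and Nfxl1. None was called higher on any array. E2f2, an activator of S phase genes, lay at -1.44 to -1.29 on the 6 arrays where Ccne1 was low, and E2f8, a repressor that E2F itself induces, at -1.87 to -1.53. E2f4, a repressor with the pocket proteins, was called lower on the same arrays (-2.60 to -1.45) and also on Gatad2b (-1.24) and Etv6 (-1.17). Tfdp1, the partner of E2F proteins in DNA binding, was called on Pax6, Crebzf, Sox11 and Zfp451, and E2f7 on Pax6 alone. The list's median lay between -0.55 and -0.30 on the 6 arrays.

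Of 19 proliferation genes, 9 were called lower on Pax6, 5 on Esx1 and Zfp451 and 4 on Crebzf, Pdx1 and Sox11, with none called higher on any array and none called on Hmga2, Gatad2b, Etv6 or Nfxl1. The list's median was -0.99 on Pax6 and -0.86 to -0.78 on the other 5. Mcm5, part of the replicative helicase, lay at -1.65 to -1.15, Plk1, a mitotic kinase, at -1.67 to -1.21, and Tyms, which makes thymidylate, at -1.29 to -1.05. On Hmga2, Gatad2b, Etv6 and Nfxl1 the median of the list lay between -0.09 and 0.05. Those are the arrays on which Ccne1 and Ccne2 were not low.

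The p53 list of 18 genes split by direction. Trp53 itself lay at -1.18 to -1.01 on the 6 arrays with low Ccne1, Zmat3 at -1.33 to -1.09 and Aen, a nuclease, at -2.15 to -1.80, all called lower. Trp53inp1 was called higher on the same arrays (1.24 to 1.41), as was the death receptor gene Fas (3.63 to 4.17). Perp, a p53 target in epithelial junctions, was not well above background on the controls and was called higher on Etv6, Esx1 and all 4 arrays of slide 3. On Etv6, where Cdkn1a stood highest, Perp was the only gene of the list called, beside the epithelial markers that were higher there. On Pax6, where Cdkn1a was lowest, 2 were called higher and 3 lower.

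Regulators of the members were mixed as well. Among 13 regulators of the Ink4 locus, Id1, known from human cells to oppose Ets factors at p16, was called higher on the 6 arrays (1.35 to 1.77), and Kdm6b, a demethylase of the Polycomb mark, was called higher (1.25) and Tbx2, a repressor of the locus, lower (-1.29) on Esx1. Bmi1, Ezh2 and the other 8 were called on no array. Ezh2, Suz12 and Eed stood at -0.87 to -0.36 on the 6 arrays, uncalled, and Bmi1 at -0.12 to 0.06. The median of this list lay between -0.12 and 0.03 there. Of 14 genes upstream of cyclin D, p15, p21 and p27, 3 were called lower on each of the 6 arrays and 2 to 4 higher. Myc was called lower on the 6 arrays (-2.40 to -1.89), as were Fosl1 (-3.33 to -2.85) and Jun (-2.01 to -1.81), which form AP-1. Egr1 was called higher on 4 arrays and Tcf7l2 on 2. Foxo3 was called higher on the 6 (1.43 to 1.83) from levels near the floor of the arrays, and Foxo1, an inducer of p27, on Esx1 and the slide 3 arrays (from 1.10 on Pdx1 to 1.29 on Esx1). Of 11 genes for the turnover of G1 cyclins and p27, only Fbxw7, which marks cyclin E for destruction, was called, lower on Esx1 (-1.29), while the list's median lay at -0.56 to -0.46 on the 6 arrays.

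**Figure D5:**
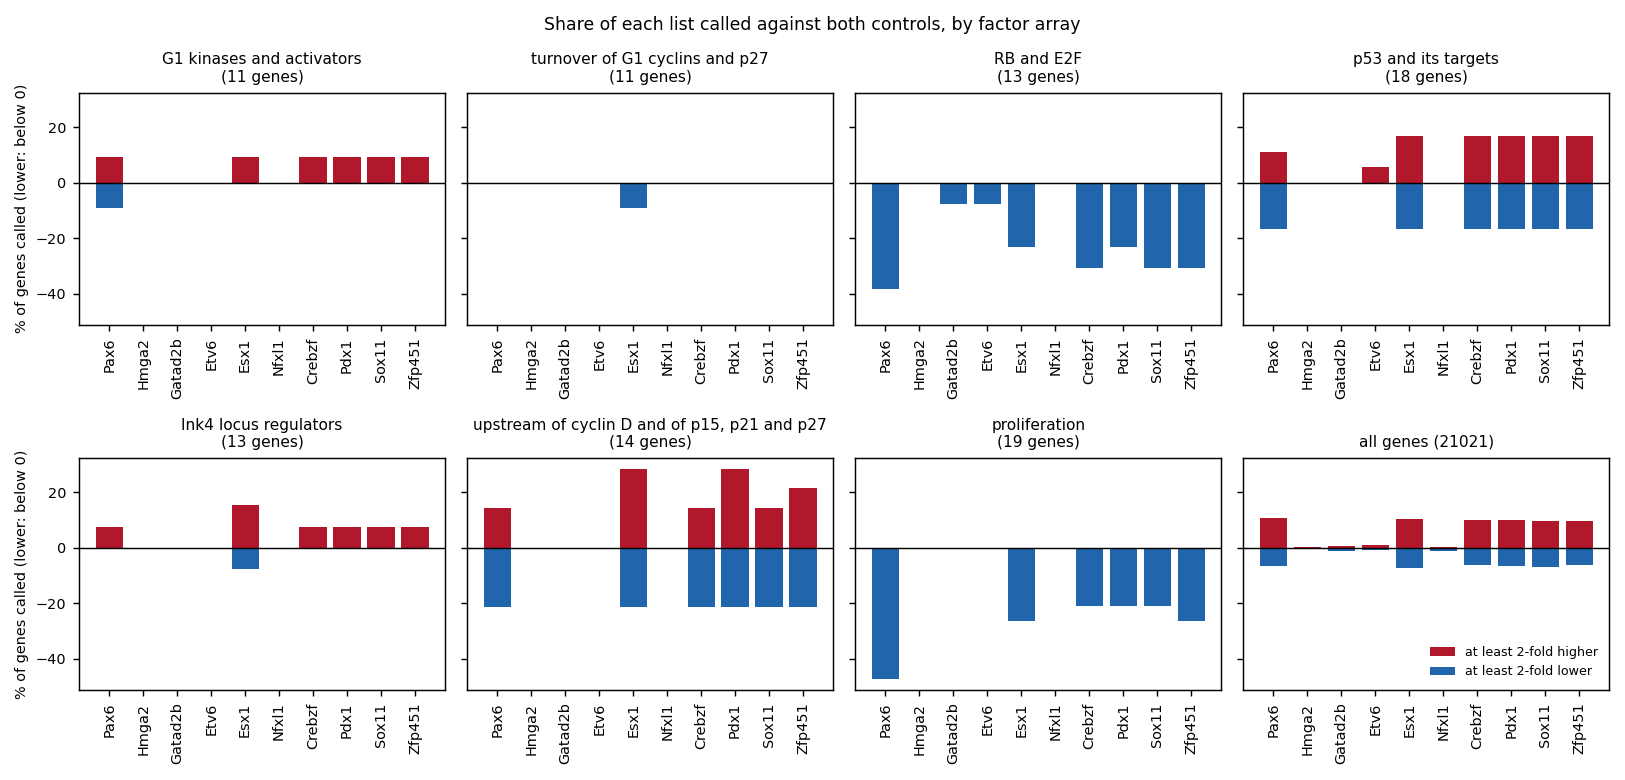
Percent of the genes of a list called at least 2-fold higher (red, above 0) or lower (blue, below 0) than both controls. Each panel shows the 10 factor arrays, and the last panel holds all 21021 genes. The list of other CDK inhibitors and the cell type markers are not shown. The bars of the proliferation list and of the RB and E2F list point down on Esx1, Pax6 and the slide 3 arrays, while those of all genes point both ways there and are near 0 on Hmga2, Gatad2b, Etv6 and Nfxl1.

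For the 6 members with a range of at least 1 log2, the genes with the most similar profile over the 12 arrays were sought, by the root mean square difference after centring each profile. Ccne1 lay closest to Rangrf and Exosc6, both at 0.04 log2, and Ccnd1 to Ap2a2 (0.04) and Prim1 (0.05). Ccne2 lay closest to Camk2n2 and Panx1 (both 0.12), and Cdkn1a to the same genes in the other order (0.13 for Panx1 and 0.17 for Camk2n2). The brightest Cdkn1b probe lay closest to Zfp839 (0.09) and Tbc1d19 (0.12). Cdkn2a had no gene closer than Ube4a at 0.25 and Ass1 at 0.27, the widest distance of the 6.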

How the data were processed

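Total RNA of 12 cultures was labelled with Cy3 from 0.25 µg and read on 1 array each. Per the file headers, the authors' image software was Agilent Feature Extraction 10.7.3.1, and the deposited values are background-subtracted intensities on the linear scale. The series' deposited value table equals that column on all 12 arrays. Probe positions are given in mm7, and no source used here states a further normalization by the authors.

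From these intensities, spots flagged as outliers were left out, each array was set on log2 relative to its 75th percentile over non-control spots, the lowest signal flagged as well above background served as a floor, and repeated spots were averaged, giving 41174 probes from 43379 spots. Probes were named through RefSeq accessions (22951), current symbols (6659), synonyms (3109) or as in the files (8455). The probe with the highest mean stands for a gene in counts and lists. Calls needed at least 2-fold from both controls, with the brighter side well above background, and no test was made because each group held 1 array. Where a control was not well above background, a fold is a lower bound ("at least"). The number of arrays limits the precision.

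The members, gene lists and motifs were chosen with earlier results of these data known. The text gives each list's counts per array and names the genes with calls on the most arrays (6 at most), and, for members with a range of at least 1 log2, the 2 nearest genes. Genes called on no array, and most of the named cell type markers, were named after their values were seen. Promoters are from RefSeq (GRCm38.p6). The call rule was tested on simulated data. Alternatives covered normalization, background (normexp in limma 3.58.1 with R 4.3.3, offset 50), the floor, probe choice, slides, the fold, the control and the value table. Python 3.11.15 with pandas 2.3.3 and numpy 2.4.6 was used.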

Additional observations from a re-analysis of the deposited data

How the results depend on the processing

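With 1 array per group, no array could be left out of a group and no error stands beside a value. The counts of 4 member and array pairs called higher and 11 called lower stayed within 1.5 times of these values under quantile normalization, the normexp background correction, no floor, other rules for several probes, genes well above background on all arrays, centring on the median of all genes, mock as the only control, and the value table. They also did so with probes of a RefSeq accession only, an alternative chosen after seeing the data. Leaving out the floor, the filter on background and the value table could not change these counts. All member probes were well above background on every array, and the value table equals the intensities used. Summed over the 10 factor arrays, the pairs called higher numbered 1 after centring within slides, 1 on the arrays of the controls' slide only, 0 with the 3-fold rule, 12 with the 1.5-fold rule and 7 with EGFP as the only control. The pairs called lower numbered 6 after centring within slides, 3 on the arrays of the controls' slide only, 3 with the 3-fold rule and 19 with the 1.5-fold rule. Centring within slides removes by construction what the 4 arrays of slide 3 share, and all calls of Ccne1, Ccne2 and Cdkn2a on that slide were lost, with that of Cdkn2a on Esx1. It also gained 2 calls, Ccne2 on the Esx1 array (-1.36) and Cdkn1a on the Esx1 array (-1.48). The calls of Ccne1 and Ccne2 on Pax6 held under all 15 alternatives, several of which could not change them. Besides the settings named above, both slide settings leave them as they are, since Pax6 shares its slide with both controls. Cdkn1b on the Esx1 array went from -0.04 to 1.20, a call higher, with RefSeq probes only, since these exclude the brightest probe. No member was specific to 1 array under any alternative run. The share of higher calls among all called gene and array pairs was 59.1%, and 78.7% and 46.4% with the 3-fold and 1.5-fold rules. All gene and array pairs called higher went from 13209 to 7292 and those called lower from 9128 to 4827 with the normexp correction, whose cause was not tested. No paired analysis was possible because each group held 1 array and the labels carry no replicate numbers.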
